A study of Mus musculus with 8 samples.

Results

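Long-term hematopoietic stem cells were taken here as the sorted bone marrow cells with at least 1 UMI of Procr and at least 1 UMI of Hlf or Mecom, and they numbered 650 of 29891 cells (2.17%). A UMI is a molecular barcode that counts 1 captured mRNA molecule. To leave out cells that had begun to differentiate, a cell was kept only with at most 1 UMI of Dntt (lymphoid), at most 2 UMIs of Pf4 (megakaryocyte) and no UMI of Klf1 (erythroid). Because the cells were selected on these 6 genes, their levels of the 6 genes are a description of the choice, and the comparison with other cells carries no test.

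The cells came from female B6 mice of 3 to 4 months, 10 kept in a specific-pathogen-free facility (SPF) and 10 moved to a conventional facility and co-housed there for 1 month with mice born in it (CVT). These numbers of mice follow the sample labels, and a different number per group is given elsewhere in the study. Lineage-negative, c-Kit positive cells (KL cells, the fraction of bone marrow that holds stem cells and most progenitors) were sorted, pooled from 2 or 3 mice each into 4 SPF pools (1, 2, 7 and 8) and 4 CVT pools (3, 4, 5 and 6), and profiled by droplet single-cell RNA-seq. The pool is the replicate throughout, and no animal can be told from another within a pool. Cells were assigned to pools by the number that ends each cell's name, which was matched to the mouse number in the sample labels.

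Hematopoietic stem cells sit at the top of the blood hierarchy, mostly in a resting state, and renew themselves while giving rise to all blood lineages. Procr encodes the endothelial protein C receptor, a surface protein used to isolate mouse stem cells that repopulate a host for long periods. Hlf and Mecom encode transcription factors that maintain stem cells and are shut off as cells commit to a lineage.

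The 8 pools held 41, 78, 63, 48, 103, 81, 51 and 185 of the selected cells, in the order of pool 1 to pool 8, and their summed UMIs ran from 282541 to 1338335 per pool. The selected cells were shallower than the rest, with a median of 6097.5 UMIs against 9103 in the other cells. The median UMI total of a selected cell averaged 6212 ± 402 in CVT pools and 6427 ± 443 in SPF pools (SD, n = 4 pools each; exact permutation test, two-sided, p = 0.486). The median number of genes per selected cell averaged 2127 in CVT and 2238 in SPF pools (exact permutation p = 0.0857). Of 29365 distinct cell barcodes in the series, 522 occurred in more than 1 pool, and 16 selected cells shared a barcode with a cell of another pool, none of them also selected. Only 16 selected cells (2.46%) held over 2 times the median UMI total of their pool, against 14.4% of all cells.

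Most cells met the Procr criterion by a single molecule: 536 had 1 Procr UMI, 95 had 2 and 19 had 3 or more, with a highest count of 4. Hlf alone was found in 319 cells, Mecom alone in 65 and both in 266. Before the limits on lineage genes were applied 767 cells qualified, and 117 were left out, 53 by Dntt alone, 49 by Klf1 alone, 10 by Pf4 alone and 5 by more than 1 limit. Just inside the limits lay 52 cells with 1 Dntt UMI and 23 with 2 Pf4 UMIs, and just outside lay 12 cells with 2 Dntt UMIs, 6 with 3 Pf4 UMIs and 34 with 1 Klf1 UMI. A further 279 cells with Procr but neither Hlf nor Mecom, and 4200 cells with Hlf or Mecom but no Procr, were not selected. The 4200 Procr negative cells, held to the same limits, are the most similar class and are used below as the closer comparison. The other cells are all 29241 cells not selected, so that they include the Procr negative cells and the erythroid cells named below.

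The label was checked against stem cell markers that the selection did not use. Ly6a, which encodes Sca-1, was detected in 44.5% of the selected cells, 26.0% of the Procr negative cells and 10.2% of all other cells. Tcf15, a transcription factor of resting stem cells, was detected in 9.23%, 3.60% and 1.67%, and Mllt3, a regulator of stem cell maintenance, in 30.2%, 17.0% and 19.4%. As the class that should lack stem cell transcripts, 7751 erythroid cells (with Klf1 and Car1) gave 2.52% for Ly6a, 1.28% for Tcf15 and 0.761% for Procr at a median depth of 11289 UMIs. Mllt3 went the other way, being found in 40.8% of erythroid cells, so that it did not separate the selected cells from that lineage.

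Surface genes of the classical stem cell gate were only partly in place. Cd48, which encodes a protein absent from the surface of the most primitive stem cells, was detected in 31.5% of selected cells against 60.5% of Procr negative cells and was lower in 8 of 8 pools, at 99.0 ± 23.3 CPM (UMIs of the gene per 1000000 UMIs of the class) against 181 ± 12.3 (SD, n = 8 pools). Slamf1, which encodes CD150, was detected in 2.77% of selected cells, 3.52% of Procr negative cells, 5.52% of other cells and 9.44% of the deeper erythroid cells, so that it did not mark the selected cells. Vwf, a marker of platelet-biased stem cells, was found in 24 cells (3.69%), against 1.81% of Procr negative cells, 3.48% of other cells and 4.12% of the deeper erythroid cells. Cd34 and Flt3, which are low or absent on the most primitive stem cells and present on multipotent progenitors, were detected in 79.2% and 32.0% of the selected cells, 84.6% and 34.2% of Procr negative cells and 54.7% and 24.0% of other cells. On these 2 genes the selected cells were thus close to the Procr negative cells and above other cells, which goes against the label of long-term stem cells.

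Across the transcriptome, 7335 genes with a UMI in at least 10% of the selected cells or of the others were compared by mean CPM over the 8 pools. Of these, 1324 (18.1%) were higher in the selected cells in 8 of 8 pools and 1016 (13.9%) were lower in 8 of 8. Against the Procr negative cells, 523 genes (7.13%) were higher and 521 (7.1%) lower in every pool. Ratios are given as log2 of mean CPM with 1 CPM added to each side, which understates the ratio of low genes.

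The order of the leading genes depended on the CPM added. With 10 CPM added, the log2 ratios of Ltb (2.35) and Ly6a (2.30) stood above that of Nkx2-3 (2.03). With none added, Gm4951 and Cdkn1c were among those with a larger fold, 12.9 and 10.7 against 9.30. With 1 CPM added, the gene with the highest ratio outside the selection genes was Nkx2-3, a homeobox transcription factor. In the selected cells its lowest, median and highest pool stood at 44.3, 55.6 and 67.2 CPM, in Procr negative cells at 15.96, 20.6 and 26.6 CPM, and in all other cells at 3.79, 6.06 and 8.46 CPM. The 3 ranges did not overlap, and the log2 ratio was 3.02 against other cells and 1.33 against Procr negative cells.

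Ly6a showed the same order, with 100.7, 116 and 136 CPM in the lowest, median and highest pool of selected cells, 24.5, 53.0 and 59.1 CPM in Procr negative cells and 6.01, 17.8 and 23.5 CPM in other cells. Cdkn1c, which encodes the cell-cycle inhibitor p57 that keeps stem cells out of division, ran from 12.9 to 29.8 CPM in selected cells, from 5.32 to 9.83 CPM in Procr negative cells and from 1.45 to 2.74 CPM in other cells. Thus a gradient from other cells through Procr negative cells to selected cells, without overlap between the classes, was present for each of these genes. Mllt3 was an exception, with other cells (19.6 to 35.0 CPM) not below Procr negative cells (17.4 to 29.2 CPM), while selected cells held 56.4 to 84.7 CPM.

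Some leading genes encode adhesion and junction proteins. Of 12 homing and adhesion genes compared, however, 3 were higher and 1 lower in every pool, beside 18.1% and 13.9% of all genes. Their median log2 ratio was 0.10 beside 0.08 over all genes. F11r, which encodes the junction protein JAM-A, had a log2 ratio of 2.86 against other cells, and Esam, an adhesion molecule of endothelial and stem cells, had 2.80. Mmrn1, a multimerin of platelets and endothelium, had 2.65. Ltb, which encodes the cytokine lymphotoxin beta, was the most abundant of the leading genes, with 114, 155 and 235 CPM in the lowest, median and highest pool of selected cells against 11.1, 23.7 and 41.7 CPM in other cells.

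Among the other leading genes, Upp1 encodes uridine phosphorylase (log2 ratio 2.79), Myof the membrane repair protein myoferlin (2.74), Nap1l3 a nucleosome assembly protein (2.73) and Pglyrp2 a peptidoglycan recognition protein (2.65). Iigp1, an interferon-inducible GTPase, had 2.71, and Gm4951, Npdc1 and Plxna4os1 had 3.00, 2.72 and 2.69. Against Procr negative cells, the highest ratios belonged to Myof (1.68), Nap1l3 (1.61), Gm4951 (1.58), Tgm2 (1.54), Cdkn1c (1.498) and Tox (1.47). Tgm2 encodes a transglutaminase and Tox a chromatin protein best known in T cells.

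**Figure D1:**
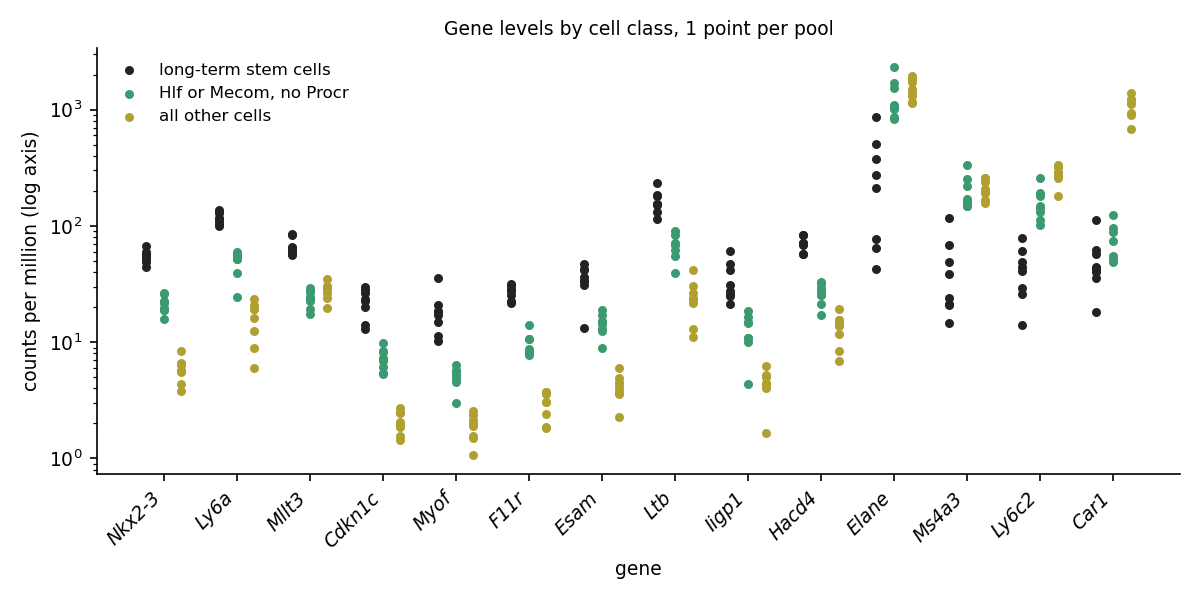
CPM (log axis) of 14 genes in the selected long-term stem cells (black), Hlf or Mecom cells without Procr (green) and all other cells (yellow), with 1 point per pool. The yellow class includes the green class. Nkx2-3 lies between 44.3 and 67.2 CPM in selected cells and no higher than 8.46 CPM in other cells, while Elane and Car1 show the opposite order.

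The genes with the lowest ratios against other cells were those of red cell formation. Car1, carbonic anhydrase of early erythroid cells, had 18.2, 43.2 and 112 CPM in the lowest, median and highest pool of selected cells and 685, 1025 and 1394 CPM in other cells. Rhd (log2 ratio -4.66), Tspo2 (-3.86) and Ermap (-3.76), which encode membrane proteins of red cells, and Epor (-3.61), the erythropoietin receptor, followed, together with the metallothionein Mt2 (-3.90), Ces2g (-3.51), Slc25a21 and Slc38a5. Except for Car1 these genes had between 2 and 42 UMIs in all selected cells, so that their ratios depend on the added 1 CPM, and none is given for Slc25a21 and Slc38a5, with 2 and 3 UMIs. Absence of Klf1, a master factor of these genes, was one of the selection criteria, and the gap to Procr negative cells, which met the same criterion, was far smaller, with log2 ratios between -0.77 for Epor and 0.15 for Ermap.

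Against Procr negative cells, the lowest genes were those of the neutrophil and monocyte path. Elane, which encodes neutrophil elastase, stood at 42.5, 241 and 859 CPM in the lowest, median and highest pool of selected cells and at 823, 1063 and 2320 CPM in Procr negative cells, so that the ranges overlapped only at their edges. Ms4a3, a marker of granulocyte-monocyte progenitors, had a log2 ratio of -2.15, Chil3 and Trem3 had -1.92 and -1.86, and Ly6c2, a monocyte surface protein, had -1.86. Igsf6, Camp, Ngp, Anxa3 and Cst7 lay between -1.73 and -1.59.

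Granule transcripts in selected cells must be read beside background. S100a8, the most abundant transcript of maturing neutrophils, was detected in 90.3% of selected cells and 93.2% of erythroid cells, and Elane in 40.8% and 62.1%. Of the 10173 S100a8 UMIs in selected cells, a single cell held 2055 of 4272 in SPF pool 8, 592 of 752 in SPF pool 2, 960 of 1077 in CVT pool 3, 466 of 536 in CVT pool 4 and 1695 of 2438 in CVT pool 6. The part of free RNA in these counts was not tested.

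Stem cell gene lists were described by how many of their members were higher in 8 of 8 pools and by the median log2 ratio. Over all genes compared the median was 0.08, and 18.1% were higher and 13.9% lower in 8 of 8 pools. These values are the base for every list below compared with other cells. Of 20 stem cell surface genes compared, 14 were higher than in other cells and 1, Cd48, was lower, with a median of 0.92. Adgrg1, an adhesion receptor of stem cells, stood at 319 ± 29.2 CPM in selected cells, 234 ± 18.3 in Procr negative cells and 110 ± 15.1 in other cells (SD, n = 8 pools). Cd47 and Ly6e differed little, with log2 ratios of -0.01 each.

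Of 22 stem cell transcription factors compared, 17 were higher in every pool and 1 was lower, with a median of 1.01. Here and in every list compared with other cells, the selection genes were left out of the count and the median. Meis1, a homeobox partner of the Hox factors, stood at 183 ± 24.8 CPM against 61.0 ± 6.47 in other cells, and Hoxa9 at 85.3 ± 11.2 against 36.3 ± 3.20. Lmo2, a bridging factor of the stem cell complex, was the most abundant of the list at 766 ± 72.4 CPM. Gata2, by contrast, stood at 70.5 ± 17.98 CPM in selected cells and 78.9 ± 10.4 in other cells, and was higher in only 3 of 8 pools.

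A list of 17 further stem cell genes had the highest median of the lists with at least 5 genes compared, 1.71, and 14 of them were higher in every pool. Ifitm1, an interferon-inducible membrane protein, stood at 1153 ± 114 CPM against 366 ± 106, and Txnip, a thioredoxin inhibitor that restrains glucose uptake, at 267 ± 61.2 against 98.9 ± 17.3. Fgd5, a guanine nucleotide exchange factor used to mark stem cells, was too sparse for the comparison, being detected in 4.92% of selected cells, 1.595% of Procr negative cells and 0.390% of other cells. Meg3, a noncoding RNA of the imprinted Dlk1 locus, was also sparse, at 6.46%, 2.19% and 0.588%.

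Immune recognition genes were higher in the selected cells in both comparisons. All 10 MHC class I genes compared were higher than in other cells in 8 of 8 pools, with a median log2 ratio of 0.69. Against Procr negative cells 8 of 10 were higher in every pool, beside 7.13% of all genes. H2-K1, a class I heavy chain, stood at 1168 ± 74.7 CPM against 650 ± 57.6, and its light chain B2m had a log2 ratio of 0.59. Of 6 MHC class II genes, 5 were higher, with a median of 0.84, and H2-Aa stood at 44.4 ± 13.3 CPM against 16.2 ± 6.40. Class II genes also had a median of 0.91 against Procr negative cells, and no other list with at least 5 genes compared had a higher one.

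Of 21 interferon-stimulated genes compared, 15 were higher in every pool and none was lower in every pool, with a median of 1.05. Ifi203, a nuclear interferon-inducible protein, stood at 195 ± 24.2 CPM against 69.9 ± 12.3 in other cells, Rtp4 at 76.2 ± 17.5 against 24.97 ± 6.35 and the guanylate-binding protein gene Gbp2 at 25.2 ± 5.61 against 7.37 ± 1.58. The receptor gene Ifngr1 went the other way, at 85.5 ± 21.6 CPM against 160 ± 17.7, and was lower in 8 of 8 pools. Of 17 AP-1 and immediate early genes, which respond within minutes to stimulation and also to tissue dissociation, 14 were higher, with a median of 1.08. Fos and Jun stood at 246 ± 119 and 363 ± 99.1 CPM, with wide SDs, and their pools are described below.

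**Figure D2:**
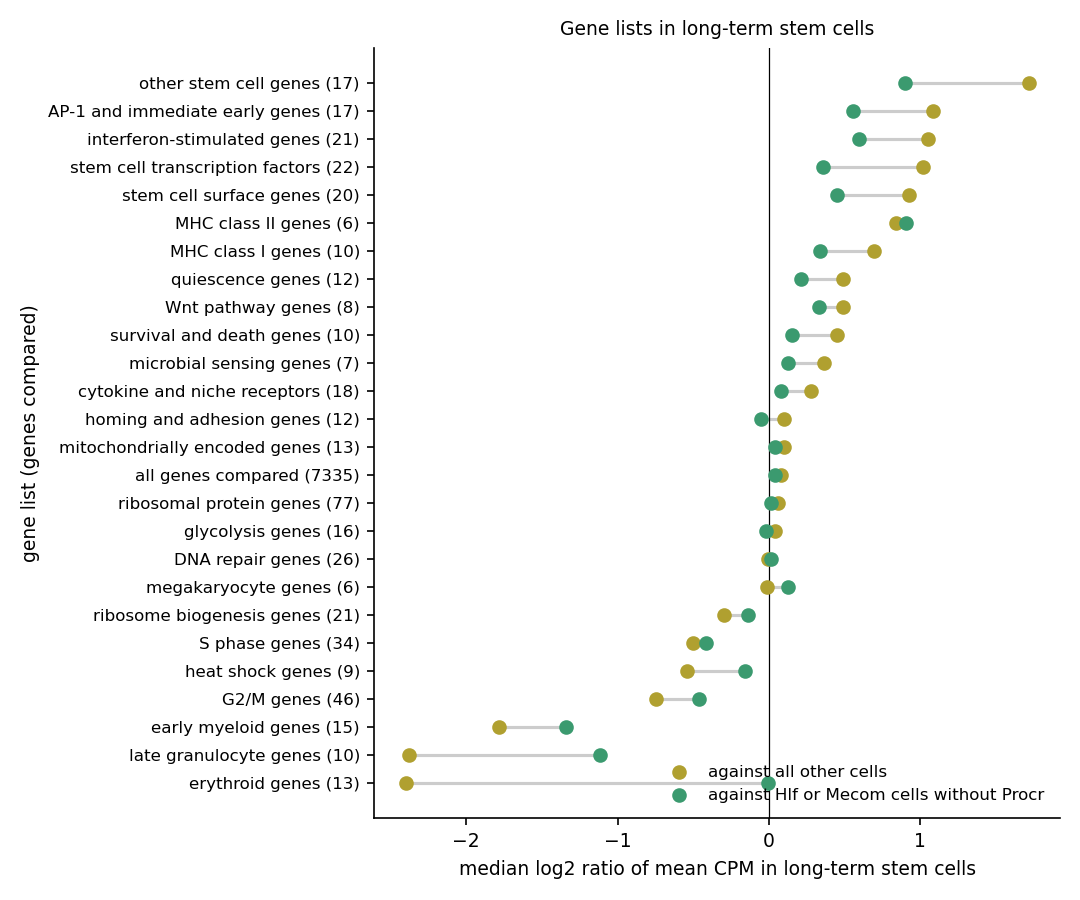
Median log2 ratio of mean CPM in long-term stem cells, for each gene list with at least 5 genes compared, against all other cells (yellow) and against Hlf or Mecom cells without Procr (green). The number of genes compared stands in brackets. The further (other) stem cell genes lie highest at 1.71 against other cells, and erythroid and late granulocyte genes lie lowest at -2.40 and -2.38.

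Genes of DNA synthesis and division were lower. Of 34 S phase genes compared, 23 were lower than in other cells in 8 of 8 pools and 1 was higher, with a median of -0.50, and of 46 G2/M genes 30 were lower and 1 was higher, with a median of -0.75. Hmgb2, a chromatin protein abundant in dividing cells, stood at 741 ± 116 CPM against 1082 ± 93.9 in Procr negative cells and 1422 ± 69.9 in other cells, and Mki67 at 48.7 ± 18.01, 73.0 ± 12.4 and 103 ± 10.3.

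As a cell-level measure, cells with at least 2 UMIs of 12 mitotic genes (among them Mki67, Top2a, Cdk1 and Ccnb1) made up 31.4% of selected cells, 48.4% of Procr negative cells and 60.0% of other cells. Because deeper cells pass more easily, each cell was also thinned to 5000 UMIs, which left out 170 selected, 630 Procr negative and 4229 other cells as too shallow, and the shares were then 30.6%, 43.1% and 54.0%. Over all cells of each class the order was thus kept at equal depth, but the pools overlapped. After thinning they ran from 21.1 to 50% in selected, 36.1 to 50% in Procr negative and 40.6 to 60.8% in other cells. Before thinning they ran from 21.6 to 40.7%, 38.7 to 60.7% and 44.6 to 72.0%. Free RNA can also add such UMIs, and its part was not tested.

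Within the selected cells, the 204 cells with mitotic UMIs differed from the 446 without them in several genes. Ly6a stood at 64.6 ± 27.2 CPM in the mitotic cells and 157 ± 18.8 CPM in the others, and Mllt3 at 38.3 ± 12.7 and 90.4 ± 15.7 (SD, n = 8 pools). Cd48 went the other way, at 157 ± 58.3 and 57.0 ± 15.9 CPM. The mitotic cells held a median of 8636 UMIs against 5611.5. Levels of the selection genes are not compared here, because 1 UMI was enough to qualify at any depth.

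Cells with both Hlf and Mecom UMIs (266 cells) carried Ly6a in 52.6%, against 39.5% of the 319 with Hlf alone and 35.4% of the 65 with Mecom alone, at similar median depths of 6122.5, 6072 and 6455 UMIs. Cdkn1c was detected in 19.9%, 8.15% and 15.4% of these cells. The 24 cells with Vwf, 1 to 5 per pool, carried Cdkn1c in 37.5%, Slamf1 in 25% and Flt3 in 4.17%. The 626 without Vwf carried these in 12.8%, 1.92% and 33.1%. Itga2b, a megakaryocyte gene, differed little, at 16.7% with Vwf and 14.5% without. The median depths were 6953.5 UMIs with Vwf and 6085 without. The classes were cut from the same counts, so these shares were not tested.

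Early myeloid, granulocyte and erythroid lists were lower. Of 15 early myeloid genes 13 were lower than in other cells in every pool (median -1.78), of 10 late granulocyte genes 7 (median -2.38) and of 13 erythroid genes 11 (median -2.40). Prtn3, a proteinase gene of early myeloid cells, was detected in 95.4% of selected cells and 94.4% of Procr negative cells. In other cells and erythroid cells it was detected in 77.7% and 64.2%. Wide detection was thus shared with the Procr negative cells. Its level of 933 ± 147 CPM in selected cells was below the 1388 ± 221 CPM of other cells. Car2 stood at 876 ± 160 CPM, against 540 ± 110 in Procr negative cells, and was higher than those in 8 of 8 pools. The 3 lymphoid genes compared had a median of 0.17, with none higher or lower in every pool. Of 6 megakaryocyte genes 2 were higher and 1 lower, with a median of -0.01, and they divided, with Nfe2 at 131 ± 21.8 CPM against 78.3 ± 6.39 and Gata1 at 5.28 ± 4.88 against 44.7 ± 8.11.

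Markers of other cell types that a sort could carry along were also counted. Of 9 T and NK cell genes in the table, 4 had any UMI in selected cells and none reached 10% of cells, with a summed level of 2.58 to 50.1 CPM per pool. Of 15 endothelial and stromal genes, 9 had any UMI, with a summed level of 51.2 to 77.9 CPM per pool against 52.1 to 60.3 CPM in other cells. Most of these UMIs were of Pecam1, an adhesion molecule that blood cells express too, found in 23.7% of selected and 25.6% of other cells, while Cdh5, Flt4, Stab2, Col1a1, Pdgfra and Sparc had none. Of 77 ribosomal protein genes 36 were higher and 6 lower in every pool, with a small median of 0.06, and of 13 mitochondrially encoded genes 5 were higher and 1 lower (median 0.10). DNA repair genes had a median of -0.01, while 10 of 21 ribosome biogenesis genes and 6 of 9 heat shock genes were lower in every pool, with medians of -0.30 and -0.54. Beside these counts, 18.1% of all genes compared were higher and 13.9% lower in every pool.

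The housing comparison asked whether 1 month in a conventional facility changed these cells in number or expression. The selected cells made up 2.17%, 2.03%, 2.47% and 4.08% of cells in SPF pools 1, 2, 7 and 8, and 1.30%, 1.15%, 2.37% and 1.93% in CVT pools 3, 4, 5 and 6. SPF pool 8 stood highest, with an exact 95% binomial interval of 3.52 to 4.70%, and CVT pool 4 lowest, with 0.849 to 1.52%, intervals that cover counting error only. The 2 groups overlapped through CVT pool 5. The means were 1.69% ± 0.568 in CVT and 2.69% ± 0.946 in SPF pools (SD, n = 4 each), a difference of -0.9999 percentage points that did not pass the exact permutation test (two-sided, p = 0.114, 0.533 after Benjamini-Hochberg adjustment over 7 shares). Without SPF pool 8 the difference was -0.536. An exact permutation test of 4 pools against 4 cannot go below p = 0.0286.

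The pools were also split into pools 1 to 4 and pools 5 to 8, a division made here on the order of the mouse numbers, since no label divides them, and in the deposited counts both CVT pools of each set lay below both SPF pools. The means were 1.22% and 2.10% in the first set and 2.15% and 3.28% in the second. With CVT and SPF exchanged only within these sets, the exact permutation p was 0.0556, the smallest that 36 regroupings allow, and 0.389 after adjustment over 7 shares. CVT pools 3 and 4, which had the lowest shares of selected cells, were also the deepest, with medians of 10206 and 12771.5 UMIs per cell against 7529.5 to 9102 in the other pools. Thinning to 5000 UMIs left out the shallower cells, 170 of 650 selected and 4229 of 29241 other cells. Among the selected cells these were 21 of 63 in CVT pool 3 and 6 of 48 in CVT pool 4. In the cells kept, the means were 1.02% and 1.55% (exact permutation p = 0.200), and the pools of the second set were no longer apart, with 1.61% in CVT pool 5 and 1.43% in SPF pool 7. Thinned to 2759 UMIs these pools held 1.06% and 0.872%. A share of KL cells cannot tell fewer stem cells from more of the other cells.

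Among Hlf or Mecom cells, Procr was found in 13.2%, 12.1%, 12.8% and 18.7% of cells of SPF pools 1, 2, 7 and 8, and in 12.7%, 10.1%, 13.2% and 10.8% of CVT pools 3, 4, 5 and 6. SPF pool 8 stood apart and the other pools overlapped (difference -2.48 percentage points, exact permutation p = 0.200, and -0.984 without SPF pool 8). The shares of selected cells with both Hlf and Mecom, with Ly6a, with Mllt3 and with Tcf15 were 39.2% ± 8.98, 41.3% ± 6.22, 30.3% ± 4.16 and 7.07% ± 4.17 in CVT pools and 41.2% ± 4.15, 45.4% ± 1.17, 30.9% ± 1.24 and 10.9% ± 2.98 in SPF pools, with exact permutation p of 0.686, 0.371, 0.800 and 0.229.

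**Figure D3:**
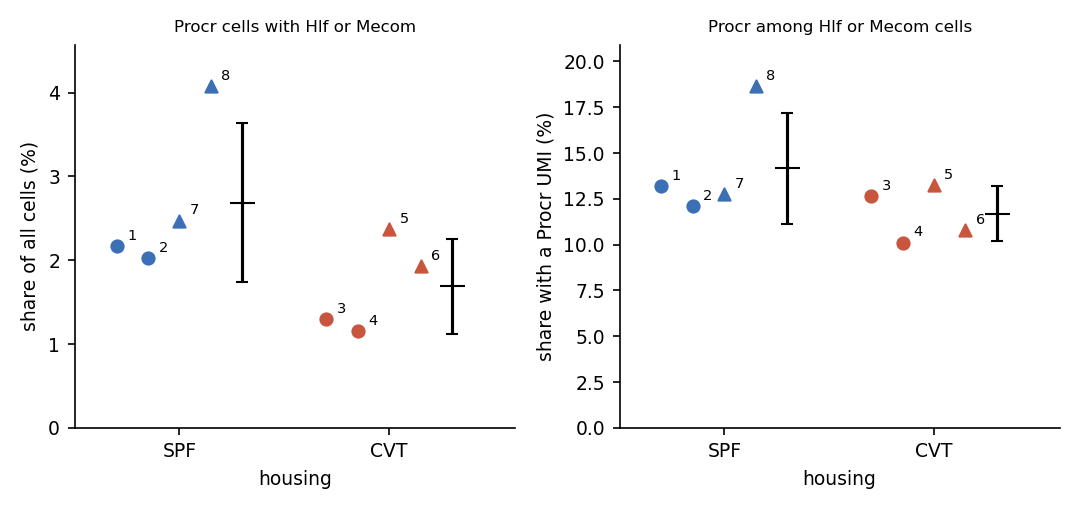
Left, share of all cells that were selected as long-term stem cells (%); right, share of Hlf or Mecom cells with a Procr UMI (%). Each point is 1 pool with its number, circles for pools 1 to 4 and triangles for pools 5 to 8, and bars give mean and SD (n = 4). SPF pool 8 is highest in both panels, at 4.08% and 18.7%.

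Summed counts of the selected cells were compared between CVT and SPF pools for 5567 genes with edgeR's quasi-likelihood test. No gene passed an adjusted p of 0.05 (0% of genes), and DESeq2 called none. At an unadjusted p under 0.05, edgeR found 129 genes higher and 112 lower in CVT (4.33% of genes), and DESeq2 found 51 and 34. Among markers that the selection did not use, Ly6a had a log2 fold change (CVT over SPF) of -0.03 ± 0.14 SE. Each selected cell had to carry Procr and Hlf or Mecom, so that their levels say nothing of housing.

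The 5 genes with the smallest p among those higher in CVT were Gm26917, Dnajb4, Cdca8, Hmgb2 and Lockd. Cdca8, a subunit of the complex that guides chromosomes in mitosis, stood at 31.9, 29.4, 49.5 and 45.6 CPM in SPF pools 1, 2, 7 and 8 and at 76.9, 64.5, 49.7 and 99.5 CPM in CVT pools 3, 4, 5 and 6 (log2 fold change 0.88 ± 0.22 SE, edgeR adjusted p = 0.822). Hmgb2 stood at 559, 662, 711 and 683 CPM in the SPF pools and 823, 756, 788 and 945 CPM in the CVT pools (0.39 ± 0.10, adjusted p = 0.843). For both genes all CVT pools lay above all SPF pools, as they did for Gm26917 (0.75 ± 0.17, edgeR adjusted p = 0.576). Over all genes, 2.96% had pools apart in either direction. The genes named were chosen by their p in these same pools, so that pools apart add no support. Dnajb4, a heat shock co-chaperone, and Lockd, a noncoding RNA beside Cdkn1b, had 0.97 ± 0.24 and 0.70 ± 0.19 and overlapped between groups.

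The 5 with the smallest p among those lower in CVT were Pdcd11, Plcg2, Ywhag, Orc4 and Vgll4. Pdcd11, a factor of ribosomal RNA processing, stood at 67.2, 60.5, 78.1 and 85.2 CPM in the SPF pools and 39.6, 38.7, 45.3 and 49.7 CPM in the CVT pools (-0.72 ± 0.19, edgeR adjusted p = 0.843). Plcg2, a phospholipase of receptor signalling, had -0.84 ± 0.23, Ywhag, a 14-3-3 adaptor, -0.67 ± 0.19, Orc4, a subunit of the origin recognition complex, -0.86 ± 0.26 and Vgll4, a cofactor of TEAD factors, -0.51 ± 0.15, each with an adjusted p of 0.937. Pools of the 2 groups were apart for the first 4 of the 5 genes and overlapped for Vgll4. Here too the genes were chosen by their p, so that pools apart add no support.

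Among gene lists, G2/M genes stood furthest from the median of all genes tested (0.01) apart from early myeloid genes. Over all 5567 genes tested, 2870 had a positive fold change and 129 were higher in CVT at an unadjusted p under 0.05. Of 32 G2/M genes tested, 29 had a positive fold change, 13 had an unadjusted p under 0.05 and none passed the adjusted threshold, with a median log2 fold change of 0.37. Their summed level was 2495, 2919, 3089 and 2941 CPM in SPF pools 1, 2, 7 and 8 and 3752, 3030, 3252 and 3956 CPM in CVT pools 3, 4, 5 and 6. The groups overlapped by 1 pool each, SPF pool 7 and CVT pool 4. S phase genes had a median of 0.03. The planned share of cycling cells, with 3 or more UMIs of the G2/M list, was 97.6% in CVT and 97.2% in SPF pools. This difference of 0.436 percentage points did not pass the exact permutation test, and nearly all cells met the measure. The share of selected cells with 2 or more UMIs of the 12 mitotic genes was 35.6% in CVT and 27.4% in SPF pools (exact permutation p = 0.143). The 12-gene share was not planned, was chosen after seeing the data and lay outside the 7 adjusted shares.

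Myeloid lists varied among the pools of both groups. Early myeloid genes had a median of 0.39 with an unadjusted p under 0.05 for 3 of 11 genes upward and 1 downward, and late granulocyte genes 0.30 with 3 of 10 higher. The summed early myeloid level was 2085, 2945, 2998 and 3340 CPM in SPF pools 1, 2, 7 and 8 and 3256, 4902, 2247 and 4354 CPM in CVT pools 3, 4, 5 and 6, so that the groups overlapped. The summed granulocyte level was 1271, 3137, 1581 and 7927 CPM in SPF pools 1, 2, 7 and 8 and 6500, 3557, 3385 and 8641 CPM in CVT pools 3, 4, 5 and 6, and the single cell with the most UMIs held 20.2% of S100a9, 21.4% of Retnlg and 20.01% of Elane. The part of granulocyte RNA in these differences was not tested.

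AP-1 and immediate early genes had a median of 0.30, with an unadjusted p under 0.05 for 7 of 17 genes upward and 1 downward. Their sum was 1377, 1837, 1594 and 2008 CPM in SPF pools 1, 2, 7 and 8 and 2550, 3103, 2087 and 1161 CPM in CVT pools 3, 4, 5 and 6, so that CVT pools held both the highest and the lowest values. Fos stood at 354 and 467 CPM in CVT pools 3 and 4 and at 133 CPM in CVT pool 6.

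Interferon-stimulated genes (median -0.05 over 22 genes), MHC class I genes (-0.06 over 10) and MHC class II genes (-0.02 over 6) had small medians. They had 7, 2 and 2 genes with a positive fold change. Summed interferon-stimulated genes stood at 2032, 2145, 2219 and 1965 CPM in SPF pools 1, 2, 7 and 8. In CVT pools 3, 4, 5 and 6 they stood at 1930, 1900, 1986 and 1829 CPM. MHC class I sums were 6600 to 7482 CPM in SPF and 5898 to 6728 CPM in CVT pools. Both sums overlapped between the groups. In Procr negative cells the interferon sums were 1721 to 1903 CPM in SPF and 1610 to 1683 CPM in CVT pools. Stem cell surface genes, transcription factors and further stem cell genes, the selection genes among them included, had medians of 0.00, 0.00 and -0.02, and Tal1 (lower) and Plxnc1 (higher) were among the few with an unadjusted p under 0.05, at edgeR p of 0.031 and 0.00612, neither of which passed after adjustment. Of 20 ribosome biogenesis genes 2 were lower at that level (Mybbp1a and Wdr12). Of 77 ribosomal protein genes 70 had a positive fold change, against 2870 of all 5567 genes tested, with a median of 0.10. Of 12 mitochondrially encoded genes 11 had a positive fold change and 4 an unadjusted p under 0.05, with a median of 0.16, and their sum was 31818, 29771, 31838 and 32928 CPM in SPF pools 1, 2, 7 and 8 and 33807, 30794, 33438 and 35932 CPM in CVT pools 3, 4, 5 and 6. DNA repair genes had a median of -0.02 over 17 genes and survival and death genes 0.10 over 9.

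**Figure D4:**
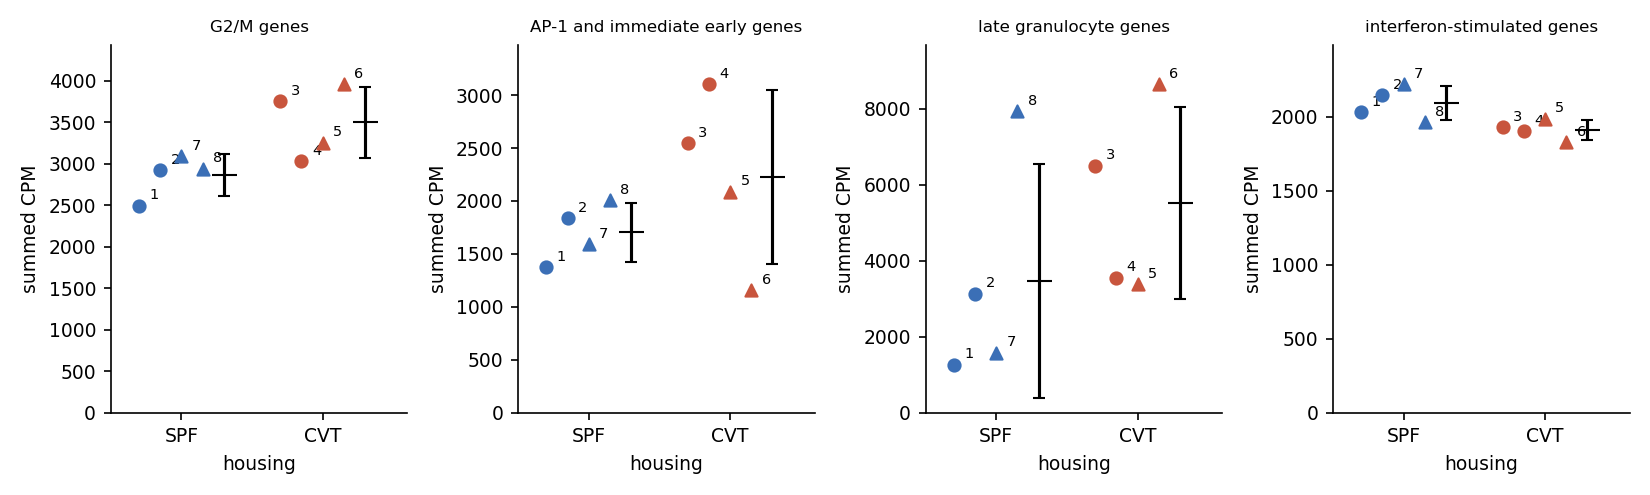
Summed CPM of 4 gene lists in the selected long-term stem cells, 1 point per pool with its number, circles for pools 1 to 4 and triangles for pools 5 to 8, with mean and SD (n = 4) beside each group. G2/M genes overlap by 1 pool of each group, and AP-1 genes are highest in CVT pools 3 and 4 (2550 and 3103) and lowest in CVT pool 6 (1161).

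Whether housing acted differently on the selected cells than on Procr negative cells was tested in 1 model over 16 sums with the pool as a block. Of 9535 genes, 1 passed an adjusted p of 0.05 (0.0105% of genes), which was Ccl5, a chemokine of T and NK cells. Ccl5 had 1, 17, 0 and 24 UMIs in the selected cells of SPF pools 1, 2, 7 and 8 and 2, 0, 2 and 3 UMIs in those of CVT pools 3, 4, 5 and 6. A single cell held 15 of the 17 UMIs in pool 2 and 17 of the 24 in pool 8, and the call was lost without pool 2, 3, 4, 5, 6 or 8. At an unadjusted p under 0.05, 219 genes had a more positive and 163 a more negative housing difference in the selected cells.

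The selected cells also differed between the pool sets, whatever the housing. Hbb-bs, a beta globin gene, was detected in 2.56 to 14.6% of selected cells in pools 1 to 4 and in 48.5 to 70.4% in pools 5 to 8, and its share over all selected cells (42.5%) was close to the 38.8% of erythroid cells and the 39.9% of other cells. Of 5567 genes, 5 were higher in pools 5 to 8 and none was lower by edgeR's quasi-likelihood test (0.0898% of genes): Hba-a2, Hba-a1, Hbb-bs, Chil3 and Arid1b, with log2 fold changes of 7.23, 6.17, 5.84, 2.40 and 1.05. Both housing groups had 2 pools in each set. Procr negative cells showed the same step, with 6.19 to 10.0 CPM of Hbb-bs in pools 1 to 4 and 123 to 412 CPM in pools 5 to 8. The single cell with the most UMIs held 47.5% of Hbb-bs and 44.6% of Hba-a1 UMIs in the selected cells.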

How the data were processed

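Sorted KL cells of 8 pools were profiled with 10x 3' chemistry. The deposited table holds the authors' UMI counts (Cell Ranger; the submitters' notes name build mm9), not normalized, for 27998 genes and 29891 cells; total counts per pool were 19041749 to 59812346. The members, markers and 31 gene lists were chosen with earlier results of these data known.

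Counts were summed per pool and class and given as CPM. The selected cells were described against other cells without a test. CVT and SPF sums were tested with edgeR 4.0.16 (TMM, filterByExpr, glmQLFTest, R 4.3.3) and DESeq2 1.42.0, with Benjamini-Hochberg adjustment at 0.05. Standard errors were taken from the quasi-likelihood F. Shares were compared by exact permutation tests over 70 regroupings, two-sided. The edgeR steps were tested on simulated data. Pools hold separate mice, so p-values measure the spread between pools of 2 or 3 mice. Other tools were Python 3.11.15, scipy 1.17.1 and scanpy 1.11.5. Scrublet marked 25 cells (0.0836%), none selected, and was treated as not having worked, so doublets were not removed.

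Genes were named by rule: the selection genes and markers; the 15 highest and 10 lowest ratios against other cells, among genes in at least 10% of cells with 1 direction in 8 of 8 pools; for housing, every gene called and the 5 smallest p in each direction; and 2 to 4 genes of each list, by level or by p. The genes ranked against Procr negative cells, and other list genes named for contrast (such as Slamf1, Vwf, Fgd5, Meg3, Gata2, Ifngr1 and Gata1), fall outside the rule and were chosen after their values were seen. Some genes that the rule names are not reported here.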

Additional observations from a re-analysis of the deposited data

Results flagged for a closer look

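In 128 groups of 4 pools, each a reported share or gene level in the selected cells, 10 held a pool whose gap to the nearest other pool passed Dixon's 95% limit; chance alone would give about 1 in 20. The share with Procr among Hlf or Mecom cells was 18.7% in SPF pool 8 and 12.1 to 13.2% in the other SPF pools. In the same pool 8, 3 granulocyte and monocyte genes stood apart: Camp at 956 CPM (124 to 190 in the others), Chil3 at 146 CPM (3.54 to 20.8) and Ms4a3 at 68.7 CPM (20.8 to 24.2). In that pool the single cell with the most UMIs held 811 of 1279 Camp, 130 of 196 Chil3 and 43 of 92 Ms4a3 UMIs. Agpat4 stood at 26.3 CPM in CVT pool 5 (18.1 to 18.6 in the other CVT pools). For 4 of the genes lowest against other cells, a single pool of the group had any UMI: Rhd (1.49 CPM, SPF pool 8), Slc25a21 (3.46 CPM, SPF pool 2), Slc38a5 (1.46 CPM, CVT pool 5) and Epor (4.66 CPM, CVT pool 3).

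The housing difference of Ccl5 was more negative in the selected cells than in Procr negative cells by 2.99 on the log2 scale (log2 difference -2.99, edgeR adjusted p = 0.0418), with the UMIs of single cells given above. The housing difference also differed between the pool sets for 3 of 5567 genes (edgeR interaction term, Benjamini-Hochberg): Irf8 (log2 difference -2.62, adjusted p = 0.00203), a factor of monocyte and dendritic development, and the AP-1 genes Fosb (-2.65, adjusted p = 0.00203) and Jund (-1.49, adjusted p = 0.0212). Fosb stood at 182 and 227 CPM in CVT pools 3 and 4 against 21.2 and 86.4 CPM in SPF pools 1 and 2, and at 46.8 and 29.8 CPM in CVT pools 5 and 6 against 49.5 and 83.7 CPM in SPF pools 7 and 8. Irf8 stood at 105 and 106 CPM in CVT pools 3 and 4, and at 21.2 to 44.3 CPM in the other 6 pools. A single cell held 25 of the 45 Irf8 UMIs in pool 3 and 14 of the 41 in pool 4, whereas no cell held over 8 of the 78 and 6 of the 88 Fosb UMIs there. Procr negative cells, in which this was not tested, ran the same way. Their Fosb stood at 137 and 174 CPM in CVT pools 3 and 4 against 31.8 and 73.0 CPM in SPF pools 1 and 2. In CVT pools 5 and 6 it stood at 41.5 and 20.6 CPM against 37.5 and 64.1 CPM in SPF pools 7 and 8. Their Irf8 and Jund were also highest in CVT pools 3 and 4, at 147 and 155 CPM and at 182 and 211 CPM.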

How the results depend on the processing

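The share of selected cells stayed lower in CVT under all 16 alternatives run, and each pool left out gave -1.23 to -0.536 percentage points, the latter without SPF pool 8. Other share differences turned: Mllt3 to 10.6 and 2.84 percentage points on thinning to 2759 and 5000 UMIs, both Hlf and Mecom to 9.27 and the share with 3 or more UMIs of the G2/M list, met by over 97% of selected cells, to -1.03 at 5000 UMIs. With each pool left out these ranged from -2.25 to 0.913, from -6.19 to 0.679 and from -0.348 to 1.27. The Ly6a share fell furthest at 5000 UMIs (-11.7, exact permutation p = 0.0286, the smallest possible, 0.200 adjusted). Genes higher in CVT rose from 0 to 15 with no filter on low counts, to 1 without the limits on Dntt, Pf4 and Klf1 and to 8 without cells of over 2 times their pool's median UMIs (chosen after seeing the data; among them Cdca8, Hmgb2, Elane and S100a9), with 0 to 2 when a pool was left out (S100a8 and S100a9 without SPF pool 8). Genes lower numbered 2 with no filter and 0 to 1 with a pool left out (Hbb-bt without CVT pool 6). With pool sets as a block (for shares, chosen after seeing the data) no gene or share was called. The interaction gave 4 higher and 5 lower with no filter, and 0 to 1 higher and 0 to 4 lower with a pool left out. Genes lower than in other cells in 8 of 8 pools fell from 1016 to 666 without the high-UMI cells; 523 higher and 521 lower were found against Procr negative cells. Hmgb2 turned to -0.16 with 2 or more Procr UMIs. The causes were not tested. No paired analysis was possible because SPF and CVT pools share no replicate numbers, and the pool sets are blocks of 4 pools, not pairs. Removal of doublets was not run, since Scrublet marked too few cells. Between 41 and 185 cells per pool limit what can be called, and intervals cover counting error only.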
